A study of Sus scrofa with 24 samples.

Results

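The genes described here mark the immune cells of the liver. A list of 47 genes was drawn up from general knowledge of Kupffer cells, the macrophages that reside in liver sinusoids, and of leukocytes, and a gene was included when the deposited tables held a row for it. This left 34 of the 47 genes among 13463 genes in all. By role they were 7 Kupffer cell and macrophage genes, 8 pan-leukocyte genes, 7 T and NK cell genes, 11 myeloid genes and the calprotectin subunit S100A8. A further 13 listed genes (CD68, MARCO, CD5L, MRC1, MSR1, PTPRC, CD86, ITGB2, LCP1, LCP2, CYBB, GZMA and S100A9) had no row under their symbol and were not analysed here.

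Liver RNAseq data came from 24 crossbred pigs (Large White, Landrace and Duroc), with 1 library per pig. Sustanon-treated pigs (3 gilts, 3 barrows and 2 boars) had received repeated intramuscular injections of testosterone esters at 4 mg/kg, and Myodine-treated pigs (3 gilts, 2 barrows and 3 boars) injections of the nandrolone ester Myodine, spelled Myodin in the labels, at 5 mg/kg. Control pigs (3 gilts, 3 barrows and 2 boars) received neither preparation and were kept in a separate room, and each group had its own pens, so treatment and housing cannot be told apart. Gilts are young females, barrows castrated males and boars uncastrated males, called sow, castrated boar and uncastrated boar in the labels, which give no age. The steroids differ in dose as well as in structure, since nandrolone lacks a methyl group of testosterone. The stocks also differed, at 250 mg/mL for Sustanon and 25 mg/mL for Myodine, so steroid and injected volume cannot be told apart. No vehicle injection of the controls is described.

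Kupffer cells clear bacteria, dead cells and aged red blood cells from portal blood. They carry scavenger and complement receptors, and macrophages are a main source of C1q, the recognition protein of the classical complement pathway. T and NK cells pass through and reside in the same sinusoids. In whole liver RNA all of these cells contribute little beside hepatocytes, and a lower level of their genes cannot separate fewer cells of a type from less RNA per cell.

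Read counts summed to between 9267780 and 14017276 per library, with a median of 10260005. The tissue label fitted its markers: ALB, which encodes albumin, had a median of 114916 TPM (a level scaled for gene length and library size), whereas 3 skeletal muscle genes had medians between 0.225 and 1.59 TPM. For 3 control libraries the Y-linked genes EIF1AY and KDM5D went against the labelled sex. The libraries labelled control gilt 16 and control gilt 18 held 511 and 529 reads of the pair, and the library labelled control barrow 15 held 1 read, while the other libraries labelled male held between 398 and 610 and the other gilts between 0 and 3. These libraries were kept in the groups of their labels, and results without them are given where they differ.

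The Kupffer cell and leukocyte genes together made up 0.270% ± 0.0254 (SD, n = 8) of the TPM of a control library. Per length, CD74 was the highest of them, with a control median of 531 TPM (range 452 to 676). CD74 encodes the invariant chain of class II antigen presentation. The complement genes C1QB and C1QC followed at 486 and 443 TPM, and their ranges (418 to 576 and 347 to 492) overlapped each other and that of CD74. Next came CD14, the co-receptor for bacterial lipopolysaccharide, at 205 TPM and the lysosomal protease CTSS at 196 TPM, whose ranges overlapped. C1QA stood at 133 TPM and the hemoglobin scavenger receptor CD163 at 113 TPM. The T and NK cell genes were lower. NKG7, a cytotoxic granule protein, reached 22.5 TPM at most in controls, and CD3E and CD3D, chains of the T cell receptor complex, had control medians of 6.99 and 3.23 TPM.

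For 2 of the 34 genes the counts were too low for the filter of the treatment and sex comparisons. The calprotectin subunit S100A8 had at most 1.37 CPM (the read count relative to the TMM-scaled library size, with no scaling for gene length) in any pig, with 0 to 0.95 CPM and a median of 0.52 in controls, 0.09 to 1.37 and a median of 0.32 with Sustanon, and 0.09 to 1.37 and a median of 0.49 with Myodine. The 3 groups overlapped over most of this range. CD3G, a further chain of that complex, was counted at 0 in 18 of 24 pigs and between 1.5 and 4.6 CPM in the others. The other 32 genes were tested, with median counts from 29 (NCF1) to 5473 (CD74).

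By position, the 3 C1Q genes lie side by side on chromosome 6 (Sscrofa11.1, chr6:80586259-80606076, RefSeq), and CD3E, CD3D and CD3G lie side by side on chromosome 9 (chr9:45619730-45656779). In all, chromosomes 4 and 6 each held 6 members, chromosomes 2 and 3 each held 5 and chromosome 9 held 4, and the X chromosome carried VSIG4 and IL2RG.

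**Figure D1:**
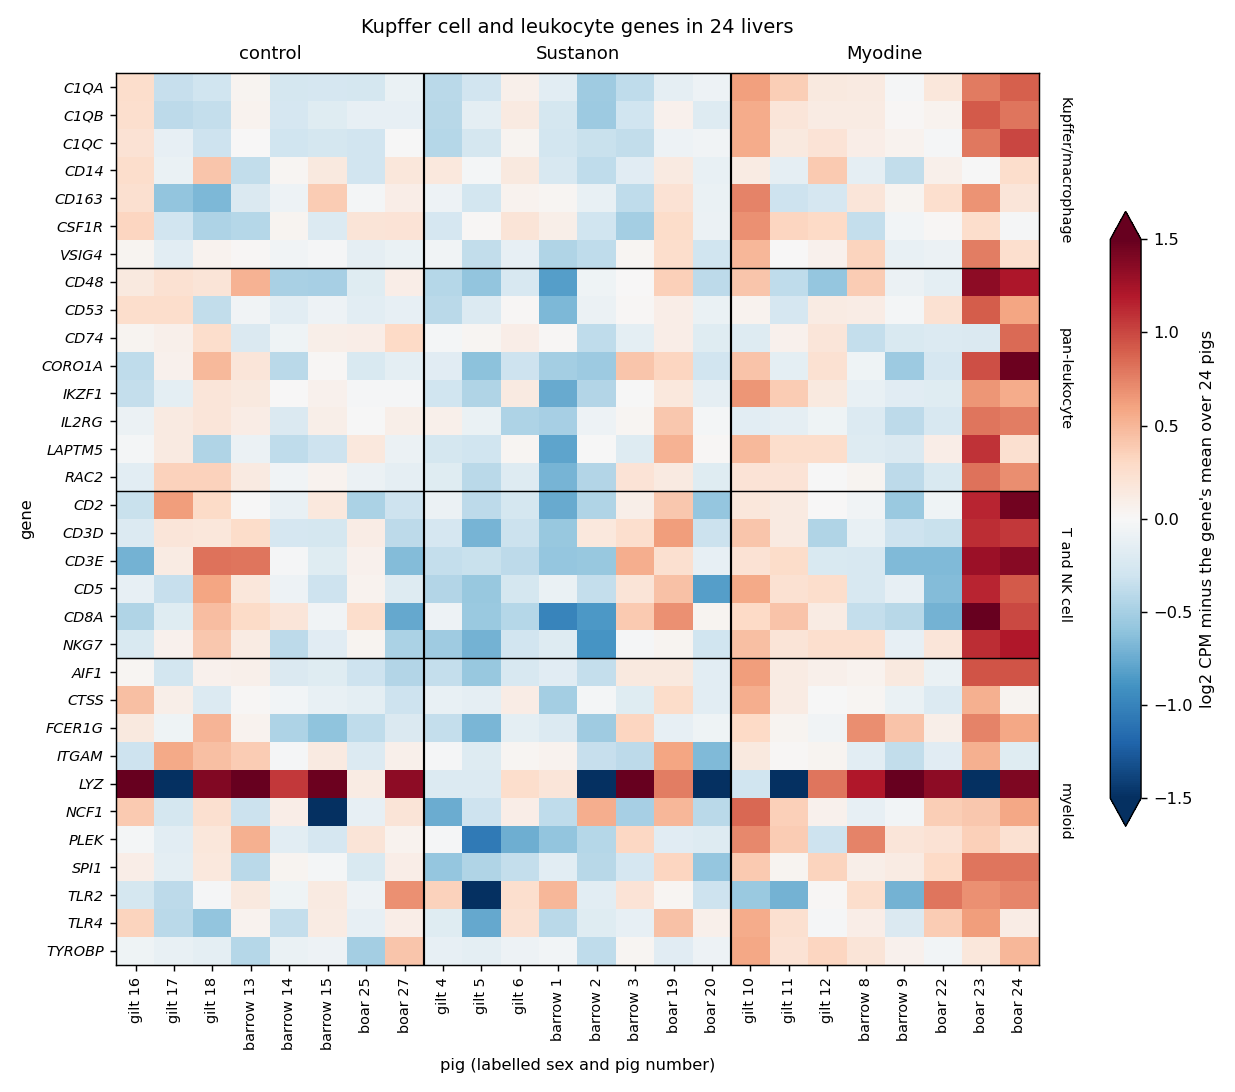
Level of 32 Kupffer cell and leukocyte genes (rows, by role) in each of 24 pigs (columns, by treatment and labelled sex), as log2 CPM minus the mean of the gene over all pigs. The colour scale ends at 1.5 in either direction. Myodine boars 23 and 24 are red over most rows, above all in the T and NK cell block, most Sustanon columns are pale blue, and LYZ, counted at 0 in 4 pigs, reaches the end of the scale.

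Sustanon-treated pigs were first compared with controls, which asks whether testosterone esters go with a change in these genes. No member was a DEG, defined by an adjusted p under 0.05 and a 2-fold change (1.56% of all genes were). In edgeR's quasi-likelihood test 0 of 32 genes passed an adjusted p of 0.05, against 5.07% of all 8279 genes tested. DESeq2 and limma also called 0 members, for which the share of all genes is not given here. At an unadjusted p under 0.05 there was 1 gene (19.6% of all genes, 8.83% lower), PLEK, a cytoskeletal substrate of protein kinase C in myeloid cells and platelets. The log2 fold change was below 0 for 26 of 32 genes (51.9% of all genes), and its median was -0.09 beside -0.01 over all genes.

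PLEK ranged from 33.4 to 58.0 CPM in controls (median 40.3) and from 19.1 to 49.7 CPM with Sustanon (median 32.3). In 7 of 8 Sustanon-treated pigs it was below the control median, and the groups overlapped. Its log2 fold change was -0.36 ± 0.17 (SE), with an adjusted p of 0.235 in edgeR. This single gene was no longer under an unadjusted p of 0.05 without any 1 of control pigs 13, 18, 25 and 27 or Sustanon pigs 1, 2, 5 and 6 or without Myodine boars 23 and 24 together, and without Sustanon boar 19 there were 3 such genes (16.2% of all genes). With gilts and barrows only there were 5 of 33 (20.4% of all genes).

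RAC2, which takes part in the oxidative burst of leukocytes, ranged from 18.7 to 26.8 CPM in controls (median 21.0) and from 12.9 to 24.2 CPM with Sustanon (median 18.4). In 6 Sustanon-treated pigs it lay below every control, yet the log2 fold change of -0.25 ± 0.16 (SE) had an adjusted p of 0.416 in edgeR. CD163 was nearly level, between 151 and 315 CPM in controls (median 233) and between 186 and 280 CPM with Sustanon (median 228). Its log2 fold change was 0.01, with a 95% interval from -0.31 to 0.34.

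CD3E ranged from 3.44 to 10.3 CPM in controls (median 5.86), from 3.79 to 8.51 CPM with Sustanon (median 4.49) and from 3.57 to 15.1 CPM with Myodine (median 5.82). These ranges overlapped widely. Its counts were low, at a control median of 59.0 reads, and the 95% interval of its log2 fold change, -0.89 to 0.36 for Sustanon against control, was wide.

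Myodine-treated pigs were then compared with the same controls, to ask the same of nandrolone. The values of these genes were mostly higher with Myodine, with C1QA and C1QC at the smallest p, but no change passed the adjusted threshold in edgeR. That test called 0 of 32 members and 0% of all 8279 genes, none of them a DEG (0%). The 10 members with an unadjusted p under 0.05 were all higher, where 7.21% of all genes reached this level and 4.40% did so as higher. The log2 fold change was above 0 for 28 of 32 genes (51.2% of all genes), with a median of 0.33 beside 0.00 over all genes. DESeq2 called 2 members, C1QA (adjusted p = 0.0255) and C1QC (adjusted p = 0.0488), beside 0.109% of all genes, and limma called 0 members and 0% of all genes. With gilts and barrows only, 5 of 33 members had an unadjusted p under 0.05, all higher, where 11.2% of all genes reached this level.

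C1QA, a chain of C1q, ranged from 147 to 224 CPM in controls (median 156) and from 185 to 349 CPM with Myodine (median 226). All 8 Myodine-treated pigs were above the control median and 4 were above every control. This was a log2 fold change of 0.55 ± 0.13 (SE), 1.47-fold, with an adjusted p of 0.346 in edgeR.

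C1QC, its neighbour, ranged from 294 to 424 CPM in controls (median 318) and from 358 to 728 CPM with Myodine (median 410). Again all 8 Myodine-treated pigs were above the control median. The difference, 0.51 ± 0.13 (SE) on the log2 scale, had an adjusted p of 0.346 in edgeR, and that of C1QB was 0.50 ± 0.14 (SE).

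AIF1, an actin-binding protein of activated macrophages, ranged from 29.1 to 41.5 CPM in controls (median 34.3), from 26.4 to 43.7 CPM with Sustanon (median 34.1) and from 36.8 to 76.1 CPM with Myodine (median 43.2). In 5 Myodine-treated pigs it was above every control. Its log2 fold change for Myodine against control was 0.55 ± 0.15 (SE), with an adjusted p of 0.350 in edgeR. The other members with an unadjusted p under 0.05 were TYROBP and FCER1G, adaptors of activating receptors, SPI1, NKG7, LAPTM5 and VSIG4, and their log2 fold changes lay between 0.28 and 0.56. Some of these values moved with other tools, covariates or sets of pigs. AIF1 then ran from 0.29 to 0.62 and NKG7 from 0.21 to 0.61. SPI1 ran from 0.23 to 0.50 and C1QC from 0.30 to 0.53. CD14 (-0.02) and CD74 (-0.05) were close to 0, and CD163 was at 0.29 with a 95% interval from -0.03 to 0.62.

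Per length, the 3 C1Q genes together made up 1053 ± 136 TPM (SD, n = 8) in controls, 1018 ± 144 TPM with Sustanon and 1455 ± 348 TPM with Myodine. The lowest Myodine-treated pig had 1164 TPM and the highest control 1227 TPM, so the groups overlapped. All members together took 0.257% ± 0.0313 (SD, n = 8) of the TPM of a Sustanon library and 0.323% ± 0.0612 of a Myodine library, with highest values of 0.309% and 0.415%.

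Within sexes, the difference between Myodine and control was uneven. Over the 32 genes the median log2 difference of means was 0.21 in gilts, with 20 genes higher, 0.01 in barrows, with 17 higher, and 0.49 in boars, with 29 higher. C1QA was higher with Myodine in each sex, by 0.51 in gilts, 0.22 in barrows and 0.80 in boars. For Sustanon against control the medians were -0.25 in gilts and -0.18 in barrows, with 28 and 27 genes lower, and 0.08 in boars, with 24 genes higher. These differences rest on 2 or 3 pigs per group and carry no test. Of the 3 control gilts 2, and of the 3 control barrows 1, are the libraries whose Y-linked counts go against their labels. Without them the median for Myodine was 0.29 in gilts (22 genes higher, against control gilt 17 alone) and 0.02 in barrows (17 higher, against 2 controls), and C1QA differed by 0.72 and 0.17. For Sustanon the medians were then -0.12 and -0.14, with 24 and 29 genes lower. The medians and counts within sexes were not computed over all genes, so they cannot be read as particular to the members.

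The comparison of Sustanon at 4 mg/kg with Myodine at 5 mg/kg, which shares each treated group with the comparisons above, held the only members past the adjusted threshold in edgeR on all pigs. With Sustanon, C1QA, C1QC, SPI1 and NKG7 were lower than with Myodine, by 1.54-fold for C1QA, 1.57-fold for SPI1 and 1.77-fold for NKG7. In edgeR 4 of 32 members passed an adjusted p of 0.05, all lower, against 0.664% of all 8279 genes, or 0.411% for lower genes. None reached the 2-fold change of a DEG (0.205% of all genes did). Of the 32 members 18 had an unadjusted p under 0.05, all lower (18.1% of all genes reached this level and 9.22% did so as lower), and the log2 fold change was below 0 for all 32 (51.0% of all genes), with a median of -0.43 beside 0.00 over all genes. These members share pigs and cell types, and the counts are given as a description.

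C1QA ranged from 129 to 197 CPM with Sustanon (median 160), so that 7 of 8 Sustanon-treated pigs lay below every Myodine-treated pig. Its log2 fold change was -0.62 ± 0.13 (SE), with an adjusted p of 0.0321 in edgeR. C1QC ranged from 270 to 376 CPM with Sustanon (median 301), and here too 7 pigs lay below every Myodine-treated pig, with a log2 fold change of -0.59 ± 0.13 (SE) and an adjusted p of 0.0399 in edgeR. C1QB was just outside the threshold, at -0.56 ± 0.14 (SE) and an adjusted p of 0.0527.

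SPI1 encodes PU.1, the transcription factor that specifies macrophages and other myeloid cells. It ranged from 12.1 to 17.9 CPM in controls (median 16.1), from 10.6 to 20.1 CPM with Sustanon (median 12.2) and from 16.6 to 28.1 CPM with Myodine (median 20.1). Sustanon boar 19 was the single Sustanon-treated pig within the Myodine range. The log2 fold change of Sustanon against Myodine was -0.65 ± 0.14 (SE), with an adjusted p of 0.0321 in edgeR, beside -0.23 for Sustanon against control and 0.42 for Myodine against control.

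NKG7 ranged from 7.32 to 13.6 CPM in controls (median 9.81), from 5.45 to 10.5 CPM with Sustanon (median 8.33) and from 9.35 to 23.8 CPM with Myodine (median 12.2). The 8 Sustanon-treated pigs were all below the Myodine median, and 7 Myodine-treated pigs were above every Sustanon-treated pig. Its log2 fold change was -0.82 ± 0.19 (SE), with an adjusted p of 0.0399 in edgeR.

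**Figure D2:**
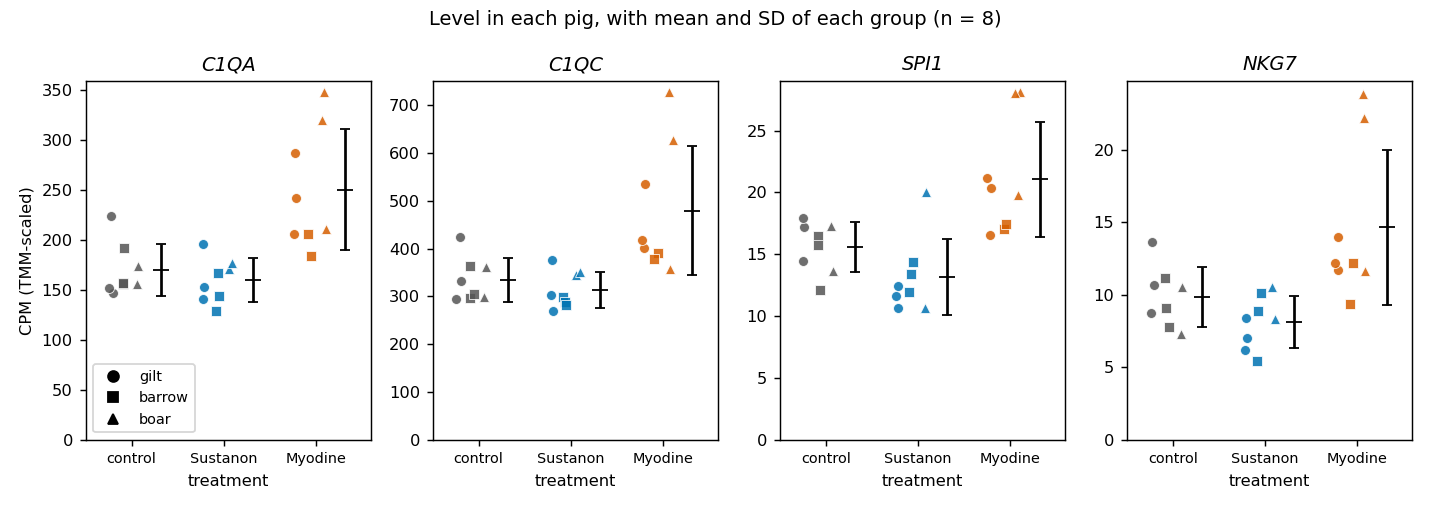
Level in CPM of C1QA, C1QC, SPI1 and NKG7 in each pig (circles gilts, squares barrows, triangles boars), by treatment, with the mean and SD of the 8 pigs beside them. The vertical axes start at 0. Sustanon and control pigs overlap, Myodine-treated pigs sit higher, and in each gene the 2 highest points are Myodine boars 23 and 24 (for C1QA 320 and 349 CPM).

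By role, the members with an unadjusted p under 0.05 in Sustanon against Myodine were 4 of 7 Kupffer cell and macrophage genes, 6 of 8 pan-leukocyte genes, 3 of 6 T and NK cell genes and 5 of 11 myeloid genes, all lower, where 18.1% of all genes reached this level and 9.22% did so as lower. The median log2 fold changes of these roles were -0.38, -0.39, -0.56 and -0.41. The members nearest to 0 were ITGAM (-0.05), CD74 (-0.06) and CD14 (-0.07). Their 95% intervals reached to -0.39, -0.34 and -0.32 on the lower side. Among the receptors of bacterial products, TLR2 was at -0.15 ± 0.25 (SE) and TLR4 at -0.30 ± 0.16 (SE).

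The Kupffer cell and macrophage genes at this level were the 3 C1Q genes and VSIG4, a complement receptor of resident macrophages. VSIG4 ranged from 49.3 to 57.1 CPM in controls, from 40.4 to 66.3 CPM with Sustanon and from 51.2 to 93.7 CPM with Myodine, and its log2 fold change of Sustanon against Myodine was -0.38 ± 0.12 (SE). Myeloid members were SPI1, AIF1, PLEK, FCER1G and TYROBP. FCER1G ranged from 16.3 to 32.8 CPM with Sustanon and from 25.3 to 44.1 CPM with Myodine, and PLEK from 19.1 to 49.7 and from 32.2 to 66.9 CPM. None of these pairs of groups was fully separate.

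Pan-leukocyte members were CD48, CORO1A, IKZF1, RAC2, CD53 and LAPTM5, of which CORO1A encodes an actin regulator and IKZF1 a lymphoid transcription factor. Their log2 fold changes of Sustanon against Myodine lay between -0.64 for CD48 and -0.36 for LAPTM5. RAC2 had a median of 22.8 CPM with Myodine and reached 37.2 CPM, and 3 Sustanon-treated pigs lay below every Myodine-treated pig. IKZF1 had a median of 7.42 CPM with Sustanon and 10.4 CPM with Myodine.

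The T and NK cell members were NKG7, CD2 and CD5, a co-receptor that dampens T cell signals. CD2 ranged from 6.93 to 15.6 CPM with Sustanon (median 9.36) and from 7.93 to 32.4 CPM with Myodine (median 12.4), with a log2 fold change of -0.62 ± 0.25 (SE). CD8A, the co-receptor of cytotoxic T cells, had a fold change of similar size, -0.57, but the upper end of its 95% interval was at 0.07. Both genes overlapped widely between the groups.

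**Figure D3:**
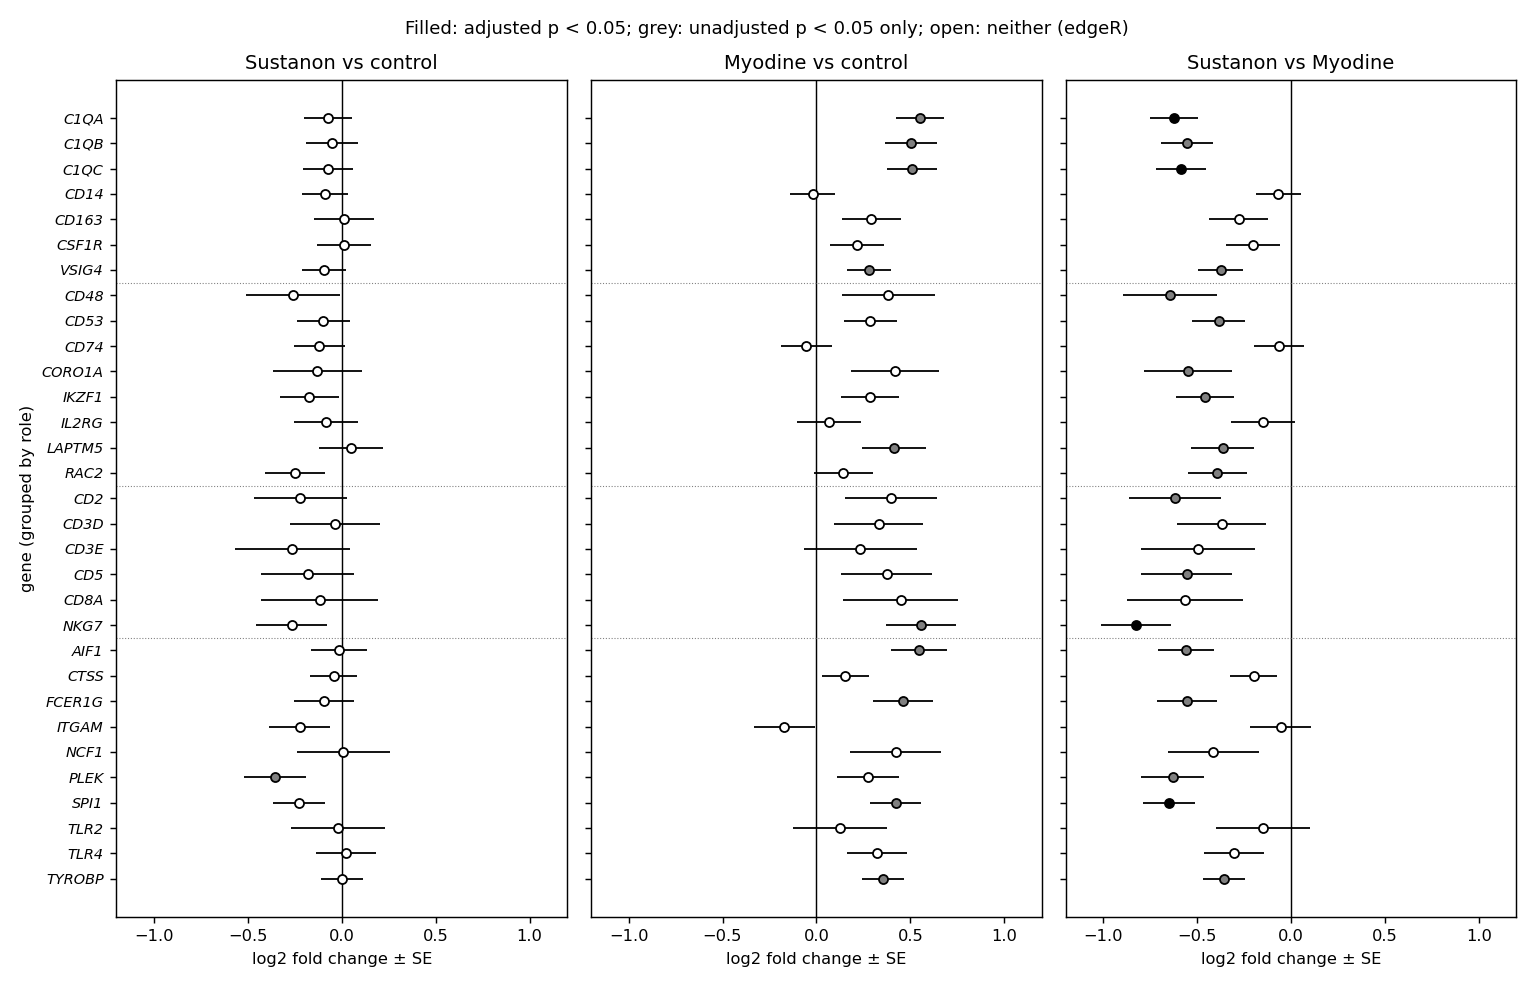
Log2 fold change with its SE for 31 members in the 3 treatment comparisons (LYZ, whose SE was about 0.7, is left out), by role from Kupffer cell genes at the top to myeloid genes at the bottom. Black points passed an adjusted p of 0.05 in edgeR, grey points an unadjusted p of 0.05, and open points neither. All 31 points of Sustanon against Myodine lie left of 0, those of Sustanon against control lie close to 0, and 4 points are black.

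The 4 calls depended on single libraries and on the method. Over other tools, covariates and sets of pigs the count ran from 0 to 8, and limma called fewer members than edgeR. Those counts stand with their shares of all genes in the closing section on processing. No member passed without any 1 of Sustanon gilts 4, 5 and 6, Sustanon barrow 2, Sustanon boar 20, Myodine gilts 10 and 11 or Myodine barrow 8. The share of all genes called in those fits is not given here, so the loss cannot be read as particular to the members. Without Myodine gilt 12 or Myodine boar 24 there were 2 calls (C1QA and SPI1), beside 0.229% and 0.926% of all genes. Without Myodine boar 23 there were 7 (6.51% of all genes) and without Sustanon barrow 3 there were 8 (2.78%). With only the 2 groups in the fit there were 0 calls (0.11% of all genes) and 17 members at an unadjusted p under 0.05 (16.5% of all genes), and without the 3 libraries whose Y-linked counts go against their labels there were 2 calls (0.344%). The fold changes moved less: over the fits without 1 pig, the log2 fold change of C1QA stayed between -0.68 and -0.54 and that of NKG7 between -0.90 and -0.69.

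Within each sex the direction was alike for the 4 genes. For C1QA the log2 difference of means, Sustanon minus Myodine, was -0.58 in gilts (3 against 3), -0.42 in barrows (3 against 2) and -0.72 in boars (2 against 3). For NKG7 these differences were -0.81, -0.43 and -0.96. Over the 32 genes the median difference was -0.46 in gilts, with 29 lower, -0.19 in barrows, with 24 lower, and -0.45 in boars, with 31 lower. These are descriptions with 2 or 3 pigs per group. They were not computed over all genes, so they cannot be read as particular to the members.

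Of the other lists of marker genes, a further macrophage list had 17 tested genes. In edgeR, FGR, a kinase of myeloid cells, passed in Sustanon against Myodine (log2 fold change -0.58, adjusted p = 0.0495), and 5 of the 17 had an unadjusted p under 0.05, all lower (VAV1, CYBA, PTPN6, CD4 and FGR). At this level stood 18.1% of all genes, 9.22% as lower, and the counts of the short lists that follow lie near that share or rest on few genes. Further T and NK cell genes had 2 of 8, both lower (LCK and GNLY), and class II genes 1 of 5, lower (SLA-DMB). Of the 6 tested B and plasma cell genes, 1 was higher (POU2AF1). Among 8 rows of hepatocyte genes 3 were higher with Sustanon at an unadjusted p under 0.05 (TTR and both rows of SERPINA1), and among 7 stellate and stromal genes 3 were higher (LUM, DCN and COL1A2). Summed hepatocyte TPM ranged from 153250 to 224297 with Sustanon, from 101454 to 197341 with Myodine and from 131193 to 193584 in controls. Of 8 endothelial genes 1 was higher (VWF) and 1 lower (LYVE1), and 1 of 3 bile duct genes was higher (KRT7). None of the 4 red blood cell genes had an unadjusted p under 0.05, and the skeletal muscle genes did not pass the filter. The part of these lists in the result was not tested.

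Myodine boars 23 and 24 stood apart from the other pigs. Both together were the 2 highest of 24 libraries for 16 of the 32 genes, and 1 or the other was the highest for 21. The 16 were all 6 T and NK cell genes tested, 5 of 8 pan-leukocyte genes, the 3 C1Q genes of the 7 Kupffer cell genes, and AIF1 and SPI1 of 11 myeloid genes. These ranks were not computed over all genes, so the counts describe the members and cannot be read as particular to them. CD2, an adhesion receptor of T and NK cells, was at 26.2 and 32.4 CPM in these boars and between 6.93 and 18.3 CPM in controls and Sustanon-treated pigs. CD3E was at 14.3 and 15.1 CPM, and the third Myodine boar, pig 22, had 3.57 CPM. CD74 separated the pair, at 445 CPM in boar 23 and 927 CPM in boar 24.

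Averaged over the 6 T and NK cell genes, the centred log2 CPM was 1.25 and 1.16 in boars 23 and 24, while all other pigs lay between -0.54 and 0.45. For the 8 pan-leukocyte genes both were at 0.80, and for the 7 Kupffer cell and macrophage genes they were at 0.60 and 0.48, beside 0.54 in Myodine gilt 10. Their totals, 10562518 and 10293402 reads, were near the median. In these libraries the summed hepatocyte TPM, 122129 and 101454, was the second lowest and the lowest of 24, and that of red blood cell genes, 1402 and 494, likewise. The summed TPM of the further T and NK cell list, 330 and 163, was the highest and the second highest. Whether these shifts bear on the levels of the members was not tested.

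**Figure D4:**
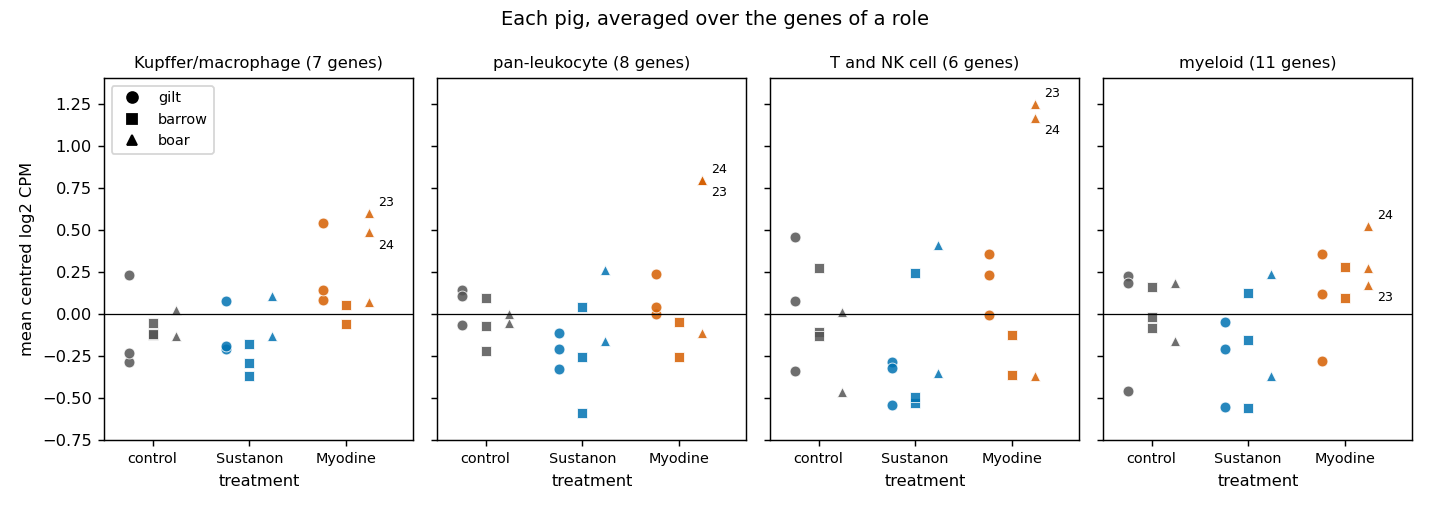
Centred log2 CPM of each pig averaged over the tested genes of a role, by treatment (horizontal axis) and labelled sex (circles gilts, squares barrows, triangles boars). Myodine boars 23 and 24, numbered, stand at 1.25 and 1.16 for the T and NK cell genes and at 0.80 for the pan-leukocyte genes, above every other pig, whereas for the myeloid genes boar 23, at 0.17, lies among the others.

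Without both boars, an alternative chosen after seeing the data, the 4 calls of Sustanon against Myodine were kept in edgeR and PLEK joined them. C1QA was then lower with a log2 fold change of -0.45 (adjusted p = 0.0143), C1QC of -0.37 (adjusted p = 0.0296), SPI1 of -0.48 (adjusted p = 0.0201) and NKG7 of -0.52 (adjusted p = 0.0346). In this fit 8.70% of all genes were called. At an unadjusted p under 0.05 stood 11 of 33 members, all lower, where 24.8% of all genes reached that level and 12.2% did so as lower. Above 0 were 6 of 33 (49.7% of all genes), and the median was -0.22. In Myodine against control, 6 of 33 members had an unadjusted p under 0.05, where 7.57% of all genes did, and the median was 0.13.

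Sex was compared with treatment as a covariate, boars against barrows first, since castration removes the source of most androgens. The barrows of this fit included 3 injected with testosterone esters and 2 with the nandrolone ester, so they were not a group without androgens. In edgeR no member passed the adjusted threshold, against 1.92% of all 8332 genes, and 0.696% were DEGs. At an unadjusted p under 0.05 there were 10 members, all higher in boars (17.9% of all genes reached this level and 8.97% did so as higher), the log2 fold change was above 0 for 30 of 32 (52.8% of all genes) and its median was 0.30 beside 0.02. DESeq2 and limma each called 1 member, LAPTM5, beside 4.48% and 2.04% of all genes.

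LAPTM5, a lysosomal membrane protein of blood cells, ranged from 26.1 to 45.0 CPM in barrows (median 39.2), from 33.1 to 63.3 CPM in gilts (median 46.3) and from 42.7 to 95.9 CPM in boars (median 50.6). All 7 boars were above the barrow median and 6 were above every barrow. The log2 fold change was 0.54 ± 0.15 (SE), with an adjusted p of 0.0574 in edgeR.

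IL2RG, the common chain of several cytokine receptors, ranged from 6.93 to 10.7 CPM in barrows (median 8.89) and from 8.30 to 17.2 CPM in boars (median 10.4). On the log2 scale the difference was 0.44 ± 0.16 (SE), with an adjusted p of 0.141 in edgeR. CD74 ranged from 395 to 548 CPM in barrows (median 455) and from 445 to 927 CPM in boars (median 554), with a log2 fold change of 0.32 ± 0.13 (SE) and an adjusted p of 0.205. For both genes the 2 groups overlapped.

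In the 8 controls alone, with 2 boars and 3 barrows, 0 of 33 members had an unadjusted p under 0.05 in edgeR, where 15.4% of all genes did. The median log2 fold change was 0.01, and the log2 differences of means of 32 members ran from -0.65 to 0.61, with 16 above and 16 below 0. Of these 3 barrows 1 is the library whose Y-linked counts go against its label, and without it 11 of the 32 differences were above 0 and the median was -0.07. The signs of these differences were not counted over all genes. Without Myodine boars 23 and 24, 2 members had an unadjusted p under 0.05 in edgeR (14.1% of all genes) and the median was 0.10. Single libraries also moved the count: it was 2 without Myodine barrow 8, 4 without Myodine barrow 9 or 1 of Myodine boars 23 and 24, 5 without Sustanon boar 19 and 17 without Myodine boar 22, where LAPTM5 passed the adjusted threshold, as it did without Sustanon barrow 2. With no treatment term in the fit there were also 17, all higher (14.2% of all genes). In the fits without 1 pig named here between 15.1% (without Myodine boar 23) and 19.5% (without Myodine boar 22) of all genes reached that level.

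**Figure D5:**
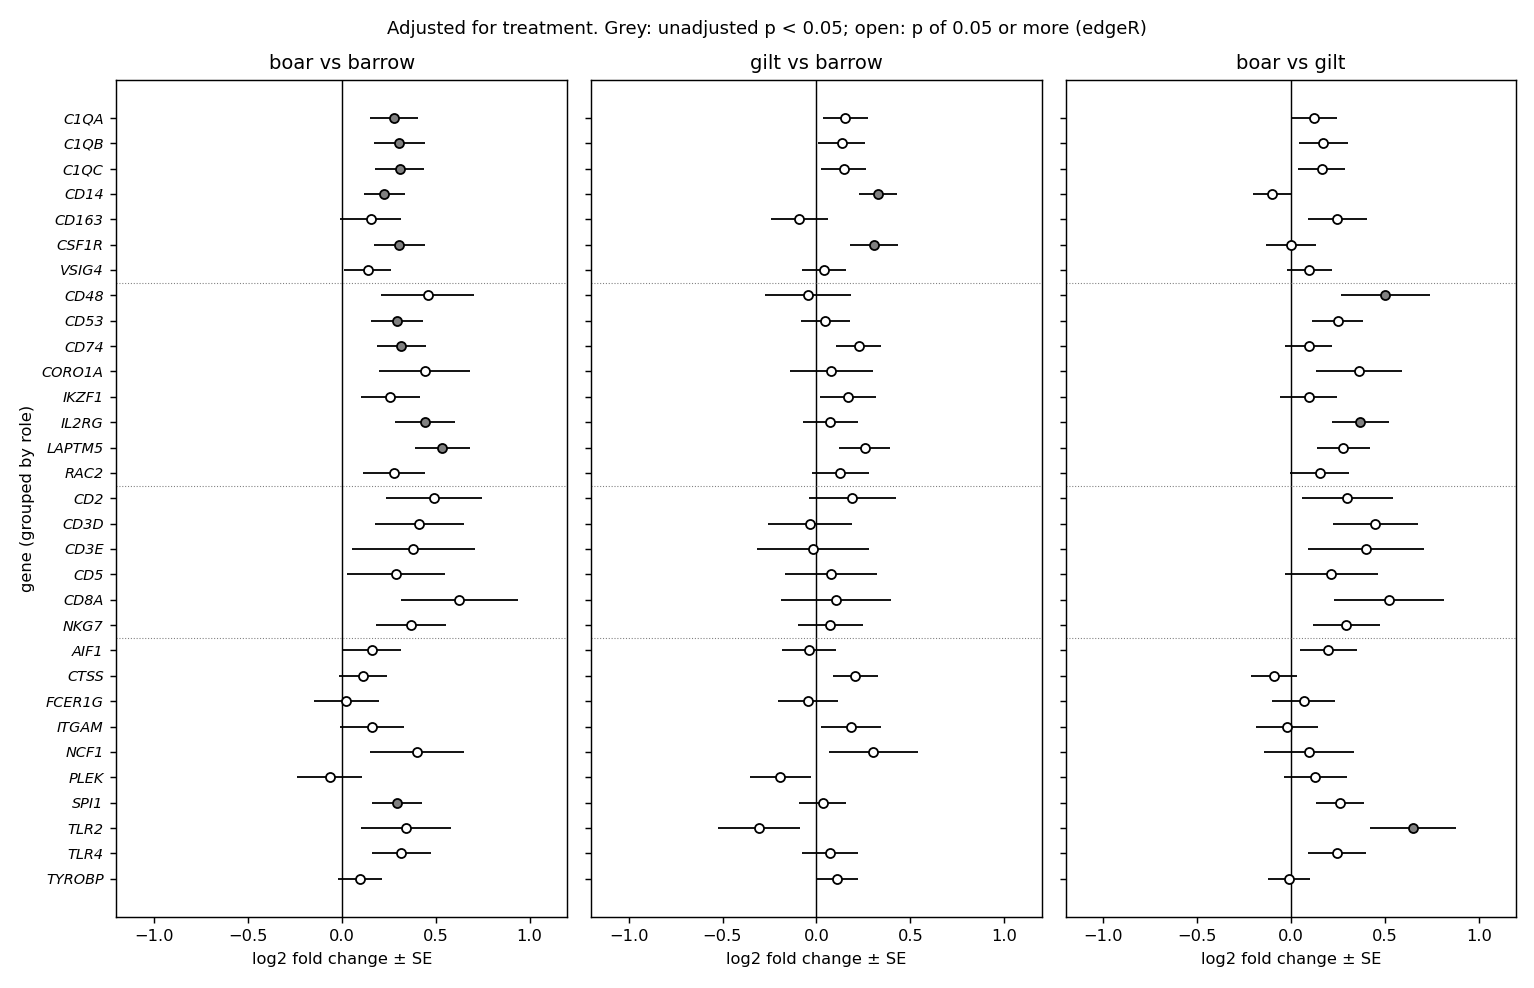
Log2 fold change with its SE for 31 members between boars, barrows and gilts, adjusted for treatment, by role as in the plot of the treatment comparisons. Grey points had an unadjusted p under 0.05 in edgeR and no point passed the adjusted threshold. In boars against barrows only PLEK lies left of 0.

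Gilts were compared with barrows next. At an unadjusted p under 0.05 in edgeR 2 of 32 members were higher in gilts (9.88% of all genes reached this level, 4.32% as higher), CD14 at a log2 fold change of 0.33 ± 0.10 (SE) and the macrophage growth factor receptor CSF1R at 0.31 ± 0.13 (SE), and 0 passed the adjusted threshold in edgeR, DESeq2 or limma (0% of all genes in edgeR). CD14 ranged from 302 to 433 CPM in barrows (median 340), from 358 to 523 CPM in gilts (median 433) and from 322 to 470 CPM in boars (median 414). The count of 2 was 1 without the library labelled control gilt 16, Sustanon barrow 3, Myodine gilt 10 or Myodine barrow 8 and 4 without Sustanon barrow 2, where between 6.44% and 12% of all genes reached that level. In the same comparison 7 of 8 endothelial genes were higher in gilts at an unadjusted p under 0.05, with a median of 0.36. The log2 fold change was above 0 for 23 of 32 members (52.5% of all genes).

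Boars against gilts gave 0 adjusted calls among the members in edgeR (3.24% of all genes, with 0.792% as DEGs). DESeq2 and limma also gave 0, without a share of all genes to set beside it here. At an unadjusted p under 0.05, 3 members were higher in boars (19.5% of all genes reached this level, 10.4% as higher), TLR2 at 0.65 ± 0.23 (SE), IL2RG at 0.37 ± 0.15 (SE) and CD48, an adhesion ligand of lymphocytes, at 0.50 ± 0.24 (SE). TLR2, a receptor of bacterial lipoproteins, ranged from 8.37 to 31.5 CPM in gilts (median 20.5) and from 19.9 to 43.2 CPM in boars (median 39.7), and the groups overlapped. The log2 fold change was above 0 for 27 of 32 members (51.2% of all genes), with a median of 0.21. The count of 3 became 1 without Sustanon boar 19 or Myodine boar 23, 5 without control boar 25, 6 without the library labelled control gilt 16, control gilt 17, Sustanon boar 20 or Myodine gilt 10, 7 without Myodine boar 22 and 8 without control boar 27, where between 16.8% and 20.2% of all genes reached that level. Without both Myodine boars 23 and 24 it was 1 (16.5% of all genes), and the median was -0.02. In limma, on the deposited log2 values, it was 11, where 21.8% of all genes reached that level. Without the 3 libraries whose Y-linked counts go against the label, edgeR gave 4 such members in boars against gilts, 11 in boars against barrows and 2 in gilts against barrows, where 20.5%, 18.4% and 12.8% of all genes reached that level.

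Whether the treatments differed from control in another way in boars than in gilts and barrows was tested by an interaction, for which all 34 genes passed the filter. For Myodine no member passed the adjusted threshold in edgeR (0.126% of all 8754 genes did). At an unadjusted p under 0.05, reached by 12.4% of all genes, there were 8 members with a larger difference in boars (7.16% of all genes): CD2 (1.61 ± 0.45, log2, SE), CD3E (1.60 ± 0.63), CORO1A, NKG7, AIF1, RAC2, IL2RG and CD53. CD3G, at 0 in most pigs, was the ninth and pointed down. DESeq2 called CD2 (1.11% of all genes), and without Myodine boar 22 edgeR called CD2, IL2RG and AIF1 (2.31%). The 9 members became 2 without Myodine boar 23 (9.84% of all genes) or boar 24 (12.3%), 5 without Myodine barrow 9 (10%) and 16 without Myodine boar 22 (18.7%). Some fits left 1 pig in an arm of boars, and that lone pig was then assumed to vary like the other groups, which alone supply the spread. Such a fit without control boar 27, which leaves control boar 25, gave 3 members (8.17%). Another, without Myodine boars 23 and 24, rests on Myodine boar 22 and gave a median interaction of -0.04 in place of 0.48, with 0 members at an unadjusted p under 0.05 (6.81% of all genes), a count that does not show that the interaction is absent. For Sustanon, 0 members had an unadjusted p under 0.05 (7.46% of all 8754 genes), and 0 passed the adjusted threshold in edgeR (0.0571% of all genes) or DESeq2. The fit without Sustanon boar 20, in which Sustanon boar 19 stands alone in its arm, gave 3 members at an unadjusted p under 0.05 (7.70% of all genes), and without any other single pig there were at most 2.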

How the data were processed

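Liver RNAseq data of 24 pigs were used, in groups taken from the sample labels. Libraries were stranded mRNA libraries. For trimming the authors used Skewer and for alignment STAR 2.5, run through docker4seq. The submitters' processing notes name Sscrofa11.1. The counting tool is not given in the sources used here. The deposited files give raw read counts per gene and the same libraries as log2(TPM + 1) values, with a pseudocount of 1. All columns were mapped to samples, and 31 members were matched by deposited symbol and 3 (C1QA, CD74 and IL2RG) by identifier. Positions are from RefSeq. Protein and promoter sequences were not used here.

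The members and lists were chosen with earlier results of these data known. Members named with group ranges are those with an adjusted p under 0.05 in a comparison, the 3 with the smallest p in each treatment comparison and in boars against barrows, and CD163, CD3E and S100A8. Ranges of other members were chosen after their values were seen.

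The analysis used edgeR 4.0.16 (R 4.3.3) with genes kept by filterByExpr, TMM factors and the two-sided quasi-likelihood test on all 24 pigs, without covariates for treatment and with treatment as a covariate for sex, and interactions of treatment with sex. P-values were adjusted by Benjamini-Hochberg over all genes tested, and a DEG also needed a log2 fold change of 1 or more in size. CPM were scaled by TMM and log2 CPM used a prior count of 2. TPM were obtained by inverting the deposited log2 values. On simulated data for Sustanon against Myodine, with 8279 genes, edgeR recovered 84.0% of 200 genes changed 2-fold and 99.0% of those changed 4-fold. Changes smaller than 2-fold were not simulated. The largest change of a member in that comparison was 1.77-fold (NKG7), so the recovery of changes of the size seen here is not known. Alternatives were DESeq2 1.42.0, the method named by the authors, limma 3.58.1 on the deposited log2 values, RLE factors, no count filter, no fold threshold, other sets of pigs or covariates, and each pig left out in turn. The labels describe separate pigs. Depth was 9267780 to 14017276 reads per library.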

Additional observations from a re-analysis of the deposited data

Results flagged for a closer look

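In each treatment group of 8 pigs, the 32 tested genes were screened for a pig whose log2 CPM lay far from the other 7, by the gap to its neighbour as a share of the whole range, against Dixon's 95% critical value. Of 96 groups 5 were marked, where chance marks about 1 in 20. LYZ was lowest in control gilt 17, at 0 CPM beside 2.84 in the next pig (share 0.724). NCF1 was lowest in the library labelled control barrow 15, at 0.738 beside 1.91 CPM (share 0.625). SPI1 was highest in Sustanon boar 19, at 20.1 beside 14.3 CPM (share 0.528). TLR2 was lowest in Sustanon gilt 5, at 8.37 beside 19.9 CPM (share 0.603). CD74 was highest in Myodine boar 24, at 927 beside 587 CPM (share 0.545). None of the 68 interaction tests of a member passed an adjusted p of 0.05 in edgeR.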

How the results depend on the processing

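The number of DEGs among the members was 0 in all comparisons and stayed 0 under each alternative that kept the fold threshold, except for the interaction of Myodine with boars, where DESeq2 gave 1 DEG and the fits without 1 pig gave 0 to 3. With no fold threshold Sustanon against Myodine gave 4. Members past an adjusted p of 0.05 in Sustanon against Myodine, 4 in the fit reported (0.664% of all genes), were 8 with DESeq2 (3.32% of all genes), 2 with limma on the deposited log2 values (0.64%), 2 without the libraries whose Y-linked counts go against the label (0.344%), 7 with sex as a covariate (4.71%), 0 with only the 2 groups compared (0.11%), and 0 to 8 in the fits without 1 pig. The same count was 2 with DESeq2 for Myodine against control, 1 with DESeq2 and 1 with limma for boars against barrows (0 to 1 without 1 pig), and 1 with DESeq2 for the interaction of Myodine with boars (0 to 3 without 1 pig). The cause was not tested. Some counts of 0 from DESeq2 and limma, and the ranges over the fits without 1 pig, stand without a share of all genes. They are not read as results about the members. None of the named gene results recomputed under these alternatives changed sign. Summed TPM of the members was 2675 ± 253 (SD, n = 8) in controls, 2547 ± 310 with Sustanon and 3204 ± 609 with Myodine, and moved by less than the SD with the filtered members alone. No paired analysis was possible because pig numbers are not shared between groups. Low counts limit CD3G, S100A8, NCF1 and the T cell genes.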
